A study of Mus musculus with 9 samples.

Results

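Interferon-stimulated genes are genes whose transcription rises when a cell receives an interferon signal, and many of their products act against viruses. The 43 such genes described here were chosen as a list of gene names and found by an exact match to the gene name column of the expression tables, which hold 55274 gene identifiers per library. The matching rule uses names and no expression value, but the list itself was chosen with earlier results of these data known. Each name matched 1 identifier. Of the 43 genes, 41 reached 1 FPKM in at least 3 of the 9 libraries and were among the 13493 genes tested, and Mx2 and Ifi44 did not. FPKM is the number of sequenced fragments divided by the length of the transcript and by the mapped total of the library, so levels of different genes can be set side by side.

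The libraries came from bone marrow cells of female C57BL6/J mice aged 6 to 8 weeks that had received 150 mg/kg of 5-fluorouracil 4 days before harvest. All 9 cultures were kept in medium with human interleukin-6, murine interleukin-3 and murine stem cell factor, and stimulated for 48 h before retroviral transduction. 3 carried NRASG12D, a RAS protein locked in its active state, in an MSCV vector with a blue fluorescent marker. 3 carried NUP98-NSD1, a fusion of a nuclear pore protein with a histone methyltransferase, in an MSCV vector with a green fluorescent marker. The last 3 carried both vectors and are called NUP98-NSD1+NRASG12D. Cells were sorted by these markers and expanded before RNA was taken, no culture with an empty vector was analysed here, and the MSCV promoter is not restricted to a cell type. The labels do not say whether replicates of a group came from separate mice or transductions, so p-values measure the spread between these samples, which may be technical.

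Type I interferons bind the receptor made of Ifnar1 and Ifnar2, the kinases Jak1 and Tyk2 are then activated, and a complex that holds Stat2 and Irf9 binds a DNA element called the interferon-stimulated response element in the promoters of target genes. Interferon gamma acts through the receptor made of Ifngr1 and Ifngr2, and its target genes can carry another element, the gamma-activated site. Among the targets are sensors of viral RNA and DNA, enzymes that block translation or degrade RNA, membrane proteins that stop viral entry or release, and large GTPases that attack vacuoles holding pathogens. In blood cells these genes are also expressed at a low level without infection, to a degree that differs between cell types.

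The depth estimated from the steps between low FPKM values was 22450000 to 35350000 fragments per library. Nras, given once as a check of the labels, ranged from 348 to 479 FPKM in NRASG12D cells, from 47.7 to 51.2 FPKM with the fusion alone and from 245 to 701 FPKM with both. The groups were also different in their cell type markers. The 11 mast cell markers had a sum of 30017 to 32657 FPKM in NRASG12D cells, 26832 to 31856 FPKM with the fusion alone and 739 to 4335 FPKM with both, and 1 of them, Cpa3, was listed at 0 in all NRASG12D libraries. Whether this 0 reflects an absence of the RNA was not tested, so the mast cell sums may not be comparable between groups. In NUP98-NSD1 compared to NRASG12D cells, 4 of the 10 tested mast cell markers (Kit, Ms4a2, Cma1 and Tpsb2) were lower and 3 were higher (limma, adjusted p under 0.05). Their log2 fold changes ran from -1.31 to 13.7, so the similar sums do not show a similar mast cell content. The 12 granulocyte markers summed to 30.1 to 40.9 FPKM, 1868 to 6314 FPKM and 9408 to 19889 FPKM in the same order, and the 11 monocyte and macrophage markers to 38.6 to 45.7 FPKM, 541 to 1073 FPKM and 2189 to 4892 FPKM. Every comparison below is thus also one between cultures of different cell content, its part in the results was not tested, and in these bulk samples a change in the number of cells of a type cannot be told apart from a change in RNA per cell.

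Promoter sequence was read first. The genes were listed as interferon targets, so a larger share of matches than in all genes was to be expected in advance. The RefSeq promoters of GRCm38.p6 held 33 of the 43 genes, and Dhx58, Zbp1, Usp18, Parp9, Parp14, Oas2, Rtp4, Mx1, Mx2 and Ifi27l2a had no entry. The core of the response element was searched as GAAA, any 2 bases and GAAA again, or as TTTC, any 2 bases and TTTC on the other strand, in the 250 bases before the start. It was present in 16 of the 33 genes (48.5%), against 936 of all 27025 genes in the table (3.46%) and 314 of the 8995 tested genes found there (3.49%). The gamma-activated site was searched as TTCNNNGAA, which reads the same on both strands, and was present in 8 of the 33 genes (24.2%) and in 8.13% of all genes. A match is a description of the sequence and does not show that a protein binds there. For each role, the gene printed is the one with a match that changed most in NUP98-NSD1+NRASG12D compared to NRASG12D cells. It is not always the gene of the role that changed most. Zbp1, Oasl2, Cmpk2, Rtp4 and Ifi27l2a changed more than the printed gene of their role and had no match or no entry. Ifit1, which has 2 separate matches, and Ifitm2 are printed as well. Stat2 and Ifitm2 have a match and were called higher in none of the 3 comparisons as tested here. Each stretch runs 5′ to 3′ on the strand of the gene, with the matches in capitals, overlapping ones joined.
Stat2, chr10:128270251-128270310, + strand: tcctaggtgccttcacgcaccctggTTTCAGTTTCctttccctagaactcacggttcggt
Isg15, chr4:156200850-156200921, - strand: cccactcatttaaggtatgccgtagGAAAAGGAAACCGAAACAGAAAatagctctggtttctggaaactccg
Oas3, chr5:120777700-120777759, - strand: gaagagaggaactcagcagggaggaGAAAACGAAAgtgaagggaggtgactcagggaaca
Ifit1, chr19:34640760-34640838, + strand: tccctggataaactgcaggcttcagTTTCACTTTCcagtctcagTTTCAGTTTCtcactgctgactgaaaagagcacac
Rsad2, chr12:26456538-26456597, - strand: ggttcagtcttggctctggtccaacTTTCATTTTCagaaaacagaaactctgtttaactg
Bst2, chr8:71537562-71537627, - strand: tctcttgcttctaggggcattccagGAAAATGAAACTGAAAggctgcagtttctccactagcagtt
Ifitm2, chr7:140955988-140956032, - strand: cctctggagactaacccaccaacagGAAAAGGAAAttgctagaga
Gbp3, chr3:142559974-142560025, + strand: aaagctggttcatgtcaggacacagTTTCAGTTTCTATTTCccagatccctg
Trim30a, chr7:104465195-104465254, - strand: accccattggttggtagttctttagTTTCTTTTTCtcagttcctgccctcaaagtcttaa
In Isg15 the capitals hold 3 overlapping copies of the core, and in Bst2 and Gbp3 they hold 2.

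The mean level of the 43 genes rose in steps from NRASG12D to NUP98-NSD1 to NUP98-NSD1+NRASG12D libraries, which is a description without a test. As the mean of log2(FPKM + 1) it was 2.45, 2.64 and 2.47 in the NRASG12D libraries, 3.54, 3.76 and 4.30 in the NUP98-NSD1 libraries and 4.61, 6.22 and 4.90 in the NUP98-NSD1+NRASG12D libraries. The 3 groups did not overlap. Over all tested genes the same mean stayed between 3.45 and 3.89 in the 9 libraries. The number of the 43 genes under 1 FPKM was 17 to 19 per NRASG12D library, 2 to 4 with the fusion alone and 0 to 2 with both. Gene by gene, the group means had this order in 40 of the 43 genes. The share of all tested genes in this order was not counted. Of all 13493, 9801 had a positive log2 fold change in NUP98-NSD1 compared to NRASG12D cells. In NUP98-NSD1+NRASG12D compared to NUP98-NSD1 cells 5811 did. In 25 of the 43 all 3 groups were apart in this order, as they were in 8.38% of all tested genes.

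**Figure D1:**
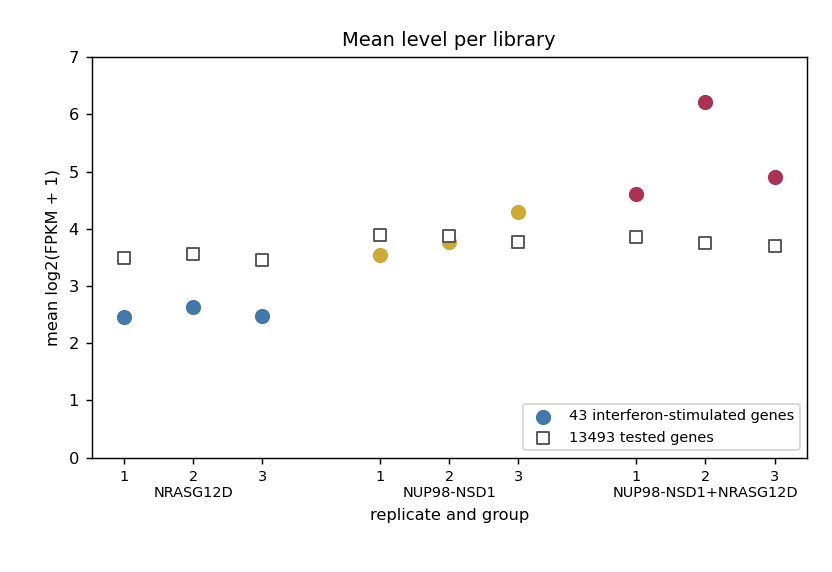
Mean of log2(FPKM + 1) per library on the vertical axis, for the 43 interferon-stimulated genes (filled circles, coloured by group) and for the 13493 tested genes (open squares), with replicates and groups on the horizontal axis. The circles climb from 2.45 in the lowest NRASG12D library to 6.22 in NUP98-NSD1+NRASG12D replicate 2, while the squares stay between 3.45 and 3.89.

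In NUP98-NSD1 cells compared to NRASG12D cells, 29 of the 41 tested genes were higher with an adjusted p under 0.05 by limma on log2(FPKM + 1) and none was lower (32 had an unadjusted p under 0.05), while 52.1% of all tested genes were called, 42.2% as higher and 9.98% as lower. The largest rises were those of Rtp4, Ifitm6, Zbp1, Ifi27l2a, Oasl2, Isg15, Ifit2 and Cmpk2, with log2 fold changes from 3.84 down to 2.57. All NUP98-NSD1 libraries lay above all NRASG12D libraries in 32 of the 41 genes, as in 50.7% of all tested genes. The median log2 fold change was 0.92 for the 41 genes and 0.27 for all tested genes. Of the 41 genes, 15 reached 1 FPKM in no NRASG12D library and were tested because of their level in the other groups, so these counts are a description of the list. The share of higher genes among all calls was 80.9% here, 49.3% after median-ratio scaling and 43.2% after quantile normalization, and the median of all genes was then -0.013 and -0.068. 23 and 21 of the 41 genes were called under these scalings, again all higher, and 16 were with all 9 libraries in 1 fit. The median of the list lay above that of all genes by 0.65, 0.72 and 0.68 with the 3 scalings.

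In NUP98-NSD1+NRASG12D cells compared to NRASG12D cells, 34 of the 41 genes were higher and none was lower (limma, adjusted p under 0.05), while 38.3% of all tested genes were called, 24.2% as higher and 14.1% as lower. Rtp4, Ifitm6, Zbp1, Oasl2, Isg15, Ifi27l2a, Oas3 and Ifit3 had the largest rises, with log2 fold changes from 6.32 down to 4.55. The groups did not overlap, with NUP98-NSD1+NRASG12D higher, in 37 of the 41 genes and in 38.7% of all tested genes. The median log2 fold change was 2.51 for the 41 genes and 0.23 for all tested genes. Without NUP98-NSD1+NRASG12D replicate 2 it was 1.81 for the 41 genes, and 34 of them were again called. With NRASG12D replicate 1, 2 or 3 left out, 24, 26 and 24 were called. Without NUP98-NSD1+NRASG12D replicate 3 the number was 30. Without NUP98-NSD1+NRASG12D replicate 1 it was 40, of which 38 were higher and 2 lower. The share of higher genes among all calls was 63.1%, and 50.9% and 41.3% after median-ratio scaling and quantile normalization. With each of these scalings 30 of the 41 genes were called, of which 28 and 29 were higher. The lower ones were Ifitm1 and Ifitm2 with the first and Ifitm2 with the second. Both comparisons use the same 3 NRASG12D libraries, so they are not independent of each other.

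In NUP98-NSD1+NRASG12D cells compared to NUP98-NSD1 cells, 8 of the 41 genes were higher and none was lower (limma, adjusted p under 0.05), while 8.61% of all tested genes were called, 2.3% as higher and 6.31% as lower. The 8 genes were Ifitm6, Zbp1, Oas1a, Trim30a, Gbp3, Ifitm3, Slfn2 and Samhd1, with log2 fold changes from 2.52 to 1.13. Under median-ratio scaling Ifitm3 and Ifitm6 alone were called, and under quantile normalization Slfn2 and Samhd1 lost their calls, which left 6. The groups did not overlap, with NUP98-NSD1+NRASG12D higher, in 27 of the 41 genes and in 11.6% of all tested genes. The median log2 fold change was 1.48 for the 41 genes and -0.06 for all tested genes. The number of called genes depended on single libraries. It was 0 without NUP98-NSD1 replicate 3 (22 of 41 at an unadjusted p under 0.05) and 1 without NUP98-NSD1 replicate 1, without NUP98-NSD1 replicate 2 or without NUP98-NSD1+NRASG12D replicate 3. It was 21, of which 19 were higher, without NUP98-NSD1+NRASG12D replicate 1, and 7 without NUP98-NSD1+NRASG12D replicate 2, when the median of the 41 genes was 0.89.

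**Figure D2:**
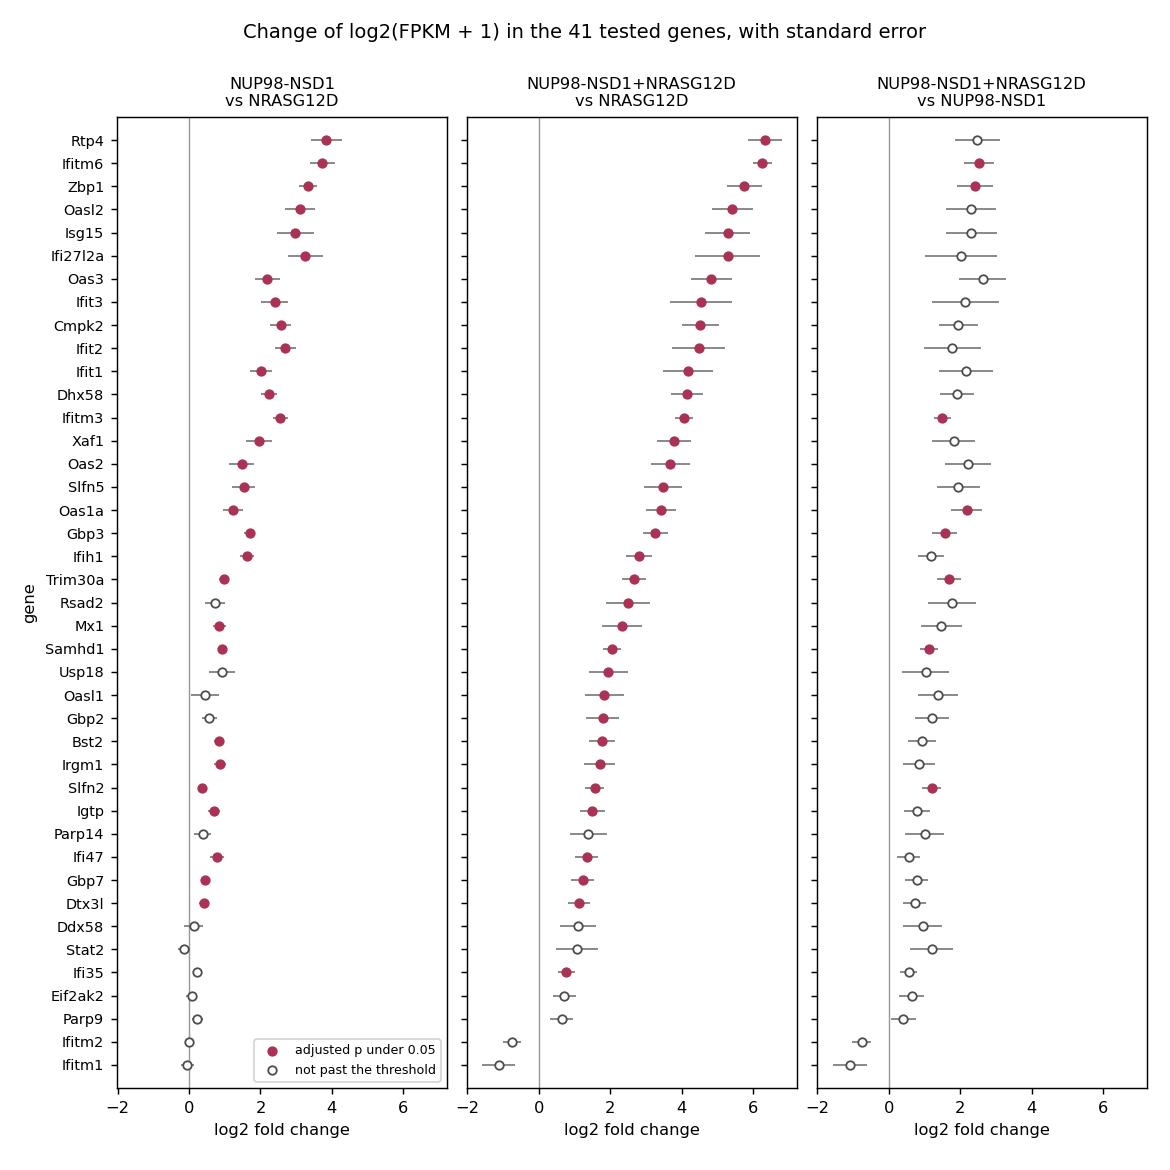
Difference between group means of log2(FPKM + 1) for the 41 tested genes (horizontal axis, log2 fold change) with its standard error, 1 panel per comparison, genes in rows ordered by the middle panel. Filled points passed an adjusted p of 0.05 and open points did not, and Ifitm1 and Ifitm2 are the 2 genes left of 0 in the middle and right panels.

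Of the 5 genes of RNA and DNA sensing and signal relay, Ifih1, Dhx58 and Zbp1 rose in both comparisons with NRASG12D. Of all tested genes 42.2% and 24.2% were called higher there. Ddx58 and Stat2 passed the threshold in none of the 3 comparisons as tested here. Both passed it with array weights, or with NUP98-NSD1+NRASG12D replicate 1 left out, in NUP98-NSD1+NRASG12D compared to NRASG12D cells. With array weights both also passed it in NUP98-NSD1+NRASG12D compared to NUP98-NSD1 cells. Stat2 passed it as lower in NUP98-NSD1 compared to NRASG12D cells without NUP98-NSD1 replicate 3. Zbp1 (ENSMUSG00000027514.14, GRCm38 chromosome 2, 173206612 to 173218923), a sensor of left-handed nucleic acid helices, had 0, 0.416 and 0.0231 FPKM in NRASG12D, 7.41, 9.98 and 14.8 FPKM in NUP98-NSD1 and 30.3, 127 and 56.0 FPKM in NUP98-NSD1+NRASG12D libraries. The gene was near absence in NRASG12D cells and the 3 groups did not overlap. Its log2 fold changes were 3.32 (standard error 0.25, limma adjusted p = 0.000275) and 5.75 (0.48, adjusted p = 0.000254) against NRASG12D, and 2.43 (0.51, adjusted p = 0.0334) between the groups with the fusion. Ifih1 encodes the RNA sensor MDA5 and rose by log2 fold changes of 1.62 and 2.81 against NRASG12D cells. Dhx58, which encodes the related LGP2, rose by 2.23 and 4.15. Stat2 carries the response element printed above, and had 12.3, 13.8 and 13.2 FPKM in NRASG12D, 9.49, 11.1 and 15.6 FPKM in NUP98-NSD1 and 11.9, 76.4 and 24.6 FPKM in NUP98-NSD1+NRASG12D libraries. NUP98-NSD1+NRASG12D replicate 2 alone stood far above the NRASG12D range, and the log2 fold change against NRASG12D of 1.07 had a standard error of 0.58 (limma adjusted p = 0.183).

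The group around protein modification holds Isg15, a ubiquitin-like protein that is attached to other proteins, Usp18, the protease that removes it, and Parp9, Dtx3l and Parp14, which act in ADP-ribosylation. Isg15 (ENSMUSG00000035692.7) had 1.07, 2.83 and 0.615 FPKM in NRASG12D, 8.57, 16.6 and 35.8 FPKM in NUP98-NSD1 and 41.6, 231 and 76.5 FPKM in NUP98-NSD1+NRASG12D libraries. The 3 groups did not overlap, and the spread was widest in the last. Isg15 rose by log2 fold changes of 2.97 (standard error 0.51, limma adjusted p = 0.00385) and 5.29 (0.62, adjusted p = 0.000976) against NRASG12D, while the difference of 2.32 (0.70, adjusted p = 0.0943) between the groups with the fusion did not pass. Usp18 was already at 21.6, 16.3 and 19.0 FPKM in NRASG12D libraries, and had 21.7, 32.7 and 67.6 FPKM in NUP98-NSD1 and 32.9, 181 and 71.8 FPKM in NUP98-NSD1+NRASG12D libraries. It rose in the second comparison (log2 fold change 1.95, limma adjusted p = 0.0305), a call lost under both other scalings, with 0.91 (adjusted p = 0.0717) in the first, and whether the 2 changes differ was not tested.

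Parp9 and Dtx3l lie next to each other on chromosome 16 on opposite strands, from 35938470 to 35972605 and from 35926511 to 35939151, and share 7.71% and 6.89% of their stretches of 50 bases. Their proteins form a complex. Dtx3l had 7.99, 9.11 and 8.66 FPKM in NRASG12D, 10.6, 10.95 and 13.7 FPKM in NUP98-NSD1 and 16.1, 33.3 and 14.7 FPKM in NUP98-NSD1+NRASG12D libraries, and rose against NRASG12D by log2 fold changes of 0.41 (limma adjusted p = 0.0276) and 1.13 (adjusted p = 0.0252). Parp9 had 10.7, 11.3 and 11.01 FPKM, 11.8, 11.2 and 16.7 FPKM, and 14.2, 31.2 and 12.4 FPKM in the same libraries, with log2 fold changes of 0.23 (adjusted p = 0.234) and 0.64 (adjusted p = 0.157). Parp14, another ADP-ribosyltransferase gene, had 1.39 (adjusted p = 0.0701) in the second comparison. Dtx3l was no longer called in either comparison under median-ratio scaling or quantile normalization.

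The 11 genes of RNA binding and translation hold the Ifit proteins, which bind foreign RNA, the oligoadenylate synthetases that activate RNase L and their relatives, the kinase PKR (Eif2ak2), and 2 Schlafen genes. 9 of the 11 rose in NUP98-NSD1 and 10 in NUP98-NSD1+NRASG12D compared to NRASG12D cells, against 42.2% and 24.2% of all tested genes. Eif2ak2 was called in neither, other than in the second comparison with array weights or without NUP98-NSD1+NRASG12D replicate 1. Oasl2 (ENSMUSG00000029561.17, chromosome 5, 114896936 to 114912234) had 0.222, 0.339 and 0.0909 FPKM in NRASG12D, 5.43, 7.12 and 20.8 FPKM in NUP98-NSD1 and 32.1, 141 and 28.4 FPKM in NUP98-NSD1+NRASG12D libraries. Its log2 fold changes against NRASG12D were 3.11 (standard error 0.42, limma adjusted p = 0.00181) and 5.41 (0.57, adjusted p = 0.000629). Oas3, with the element shown above, had 0.187, 0.647 and 0.491 FPKM, 3.05, 5.02 and 10.4 FPKM, and 15.2, 89.7 and 44.5 FPKM in the same order, and rose by 2.19 and 4.83. Both genes were apart between all 3 groups.

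Oas1a had 4.69, 8.73 and 6.06 FPKM in NRASG12D, 12.1, 14.9 and 23.2 FPKM in NUP98-NSD1 and 42.9, 140.2 and 75.1 FPKM in NUP98-NSD1+NRASG12D libraries, and rose in each of the 3 comparisons, by log2 fold changes of 1.23, 3.41 and 2.18 (limma adjusted p = 0.00886, 0.00120 and 0.0303). Of its stretches of 50 bases, 57.6% also occur in Oas1g, so the share of its reads that belongs to that gene is uncertain. The same holds for Ifit3, which shares 51.2% with Ifit3b.

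Ifit2 had 0.433, 0.361 and 0.290 FPKM in NRASG12D, 4.43, 8.63 and 11.9 FPKM in NUP98-NSD1 and 12.5, 114 and 16.8 FPKM in NUP98-NSD1+NRASG12D libraries, and rose by log2 fold changes of 2.69 and 4.47 against NRASG12D. Ifit3 had 0.0872, 0.254 and 0.0666 FPKM, 2.18, 5.87 and 8.80 FPKM, and 10.5, 126 and 11.8 FPKM, and rose by 2.40 and 4.55. Ifit1, whose promoter holds 2 copies of the core, rose by 2.01 and 4.18. In these 3 neighbours on chromosome 19 the level in NUP98-NSD1+NRASG12D replicate 2 stood far above that in the other 2 libraries of its group, whose Ifit3 level was close to the 8.80 FPKM of NUP98-NSD1 replicate 3. Slfn2, the most abundant gene of this role and a negative regulator of immune cell proliferation, had 32.2, 31.5 and 32.8 FPKM, 43.6, 40.1 and 40.96 FPKM, and 61.9, 125 and 118 FPKM. It rose in each comparison, by 0.36, 1.56 and 1.204 (limma adjusted p = 0.00727, 0.00473 and 0.0444), and the first and the last of these calls were lost under both other scalings. Oas2 rose by 1.47 and 3.69 and Slfn5 by 1.53 and 3.48 against NRASG12D, and the first call of each was lost under quantile normalization. Oasl1 rose by 1.84 in NUP98-NSD1+NRASG12D compared to NRASG12D cells, a call lost under both other scalings.

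**Figure D3:**
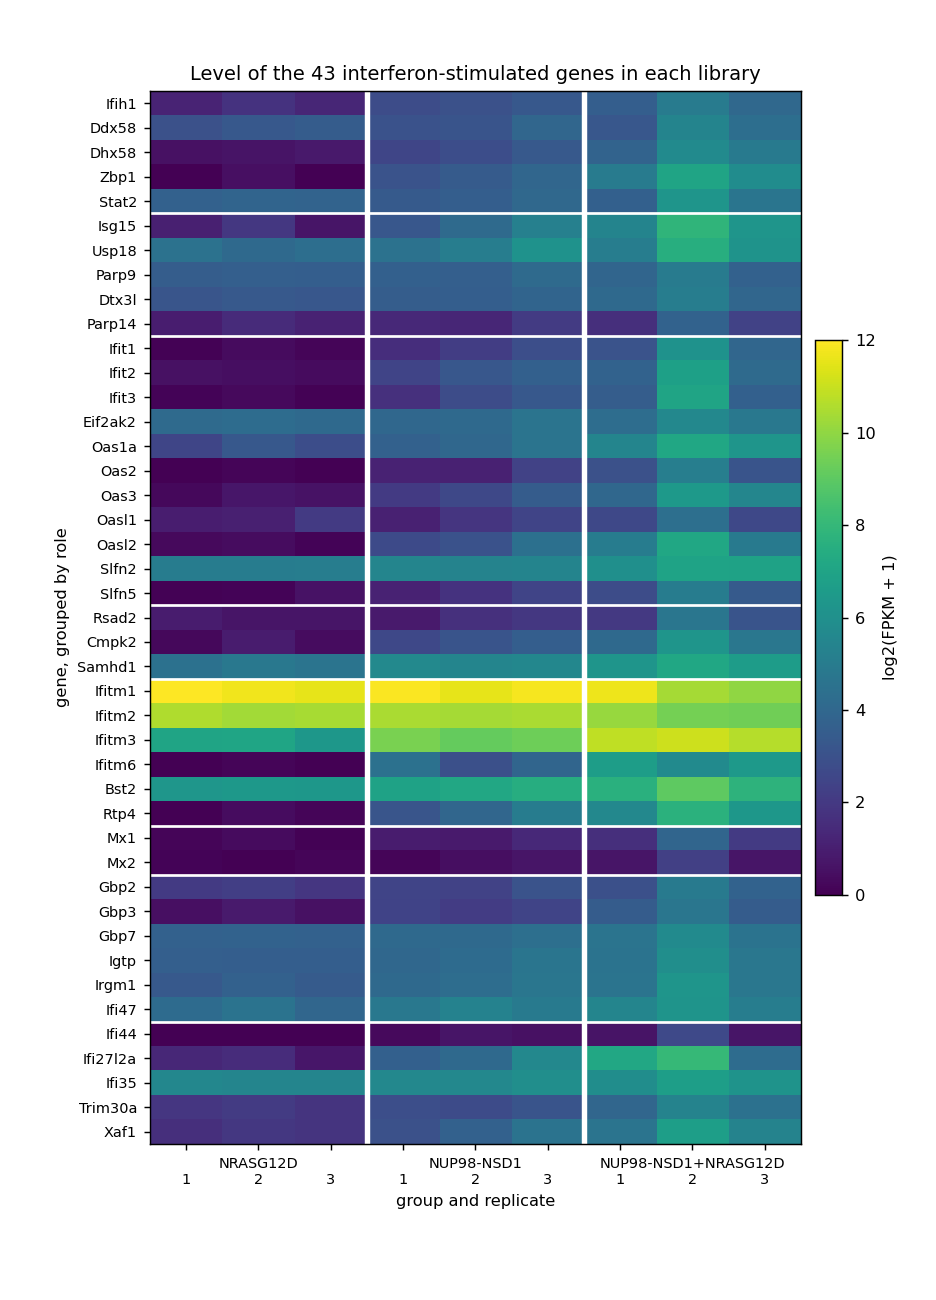
Level of each of the 43 genes (rows, grouped by role) in each of the 9 libraries (columns, by group and replicate) as log2(FPKM + 1), from 0 (dark) to 12 (yellow). Most rows brighten from left to right with the brightest cell in NUP98-NSD1+NRASG12D replicate 2, and the rows of Ifitm1 and Ifitm2 are bright throughout.

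The 3 genes of nucleotide metabolism all rose in NUP98-NSD1+NRASG12D compared to NRASG12D cells, as did 24.2% of all tested genes. Samhd1 (ENSMUSG00000027639.16, chromosome 2, 157097533 to 157135265), which degrades the building blocks of DNA, had 21.3, 26.7 and 23.8 FPKM in NRASG12D, 49.6, 42.7 and 45.4 FPKM in NUP98-NSD1 and 75.6, 142 and 97.7 FPKM in NUP98-NSD1+NRASG12D libraries. It rose in each comparison, with log2 fold changes of 0.92 (standard error 0.11), 2.05 (0.24) and 1.13 (0.24) and limma adjusted p of 0.00121, 0.000996 and 0.0362. Rsad2, which encodes viperin, and Cmpk2, a nucleotide kinase of mitochondria, lie side by side on chromosome 12, from 26442746 to 26456452 on the minus strand and from 26469204 to 26479837 on the plus strand. Cmpk2 had 0.182, 0.907 and 0.334 FPKM, 5.01, 7.59 and 11.1 FPKM, and 16.3, 75.4 and 26.3 FPKM, and rose by 2.57 (adjusted p = 0.00104) and 4.52 (adjusted p = 0.000912) against NRASG12D. Rsad2 had 0.861, 0.624 and 0.595 FPKM, 0.822, 2.13 and 2.85 FPKM, and 2.92, 25.1 and 7.63 FPKM. Its NUP98-NSD1 and NRASG12D libraries overlapped (log2 fold change 0.73, adjusted p = 0.0570), and it rose in the second comparison (2.51, adjusted p = 0.0193).

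The Ifitm genes encode small membrane proteins that hold viruses in endosomes, lie together on chromosome 7, and did not move alike. Ifitm3 (chromosome 7, 141009586 to 141010770) had 128, 133 and 81.3 FPKM in NRASG12D, 757, 582 and 655 FPKM in NUP98-NSD1 and 1825, 2208 and 1636 FPKM in NUP98-NSD1+NRASG12D libraries. Its log2 fold changes were 2.56 (standard error 0.20, limma adjusted p = 0.000309), 4.06 (0.25, adjusted p = 0.000101) and 1.503 (0.24, adjusted p = 0.0155). Ifitm6 (141015699 to 141017924) had 0, 0.105 and 0 FPKM, 21.2, 6.68 and 14.2 FPKM, and 100.02, 52.2 and 90.4 FPKM. It rose by 3.73 (0.35, adjusted p = 0.000599), 6.25 (0.26, adjusted p = 3.37e-05) and 2.52 (0.42, adjusted p = 0.0182), and both genes were apart between all 3 groups.

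Ifitm1 (140967221 to 140969825) was the most abundant of the 43 genes in NRASG12D cells. It had 4658, 3376 and 3015 FPKM in NRASG12D, 3885, 3042 and 3644 FPKM in NUP98-NSD1 and 3341, 1317 and 1031 FPKM in NUP98-NSD1+NRASG12D libraries. The last group reached from inside the range of the others to below it, with log2 fold changes of -0.05, -1.13 and -1.08 in the 3 comparisons (limma adjusted p = 0.851, 0.0964 and 0.218). Ifitm2 (140954837 to 140955987), which has the response element core shown above, had 1530.3, 1279 and 1364 FPKM, 1445, 1319 and 1428 FPKM, and 1138, 731 and 678 FPKM. All its NUP98-NSD1+NRASG12D libraries lay below all others, with log2 fold changes of 0.01, -0.75 and -0.76 (adjusted p = 0.948, 0.0567 and 0.139). Of its stretches of 50 bases, 48.5% occur in other transcripts. Without NUP98-NSD1+NRASG12D replicate 1 both genes passed the threshold as lower in both comparisons with that group, and both also did against NRASG12D under median-ratio scaling.

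**Figure D4:**
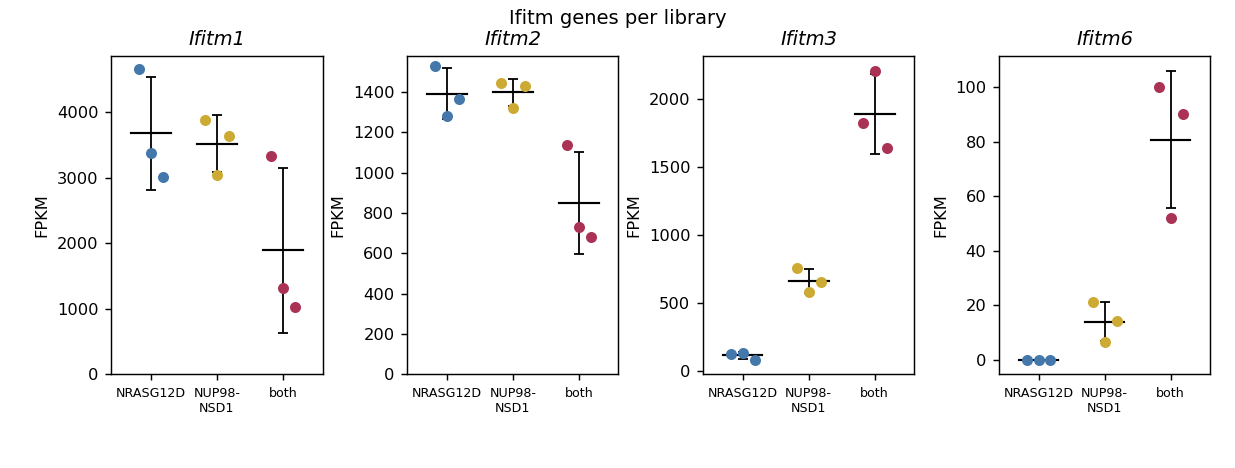
FPKM (vertical axes from 0 or just below, a separate scale per gene) of the Ifitm genes in the 3 libraries of each group, with mean (bar) and SD (whiskers), where both stands for NUP98-NSD1+NRASG12D. Ifitm3 and Ifitm6 climb over the 3 groups, Ifitm3 to 1636 FPKM or more, while Ifitm1 and Ifitm2 have their lowest values, 1031 and 678 FPKM, in NUP98-NSD1+NRASG12D replicate 3.

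The other 2 membrane genes rose in both comparisons with NRASG12D. Of the 6 membrane genes 4 thus rose in each, against 42.2% and 24.2% of all tested genes. Rtp4 (ENSMUSG00000033355.6, chromosome 16, 23520291 to 23614222), a chaperone of receptor transport, had 0.0279, 0.331 and 0.123 FPKM in NRASG12D, 7.86, 14.4 and 31.9 FPKM in NUP98-NSD1 and 47.2, 199 and 80.8 FPKM in NUP98-NSD1+NRASG12D libraries. It had the largest log2 fold changes of the list in both, 3.84 (standard error 0.43, limma adjusted p = 0.00104) and 6.32 (0.48, adjusted p = 0.000188). Its difference between the groups with the fusion was 2.48 (0.63, adjusted p = 0.0585), although they did not overlap. Bst2, the tetherin that retains budding viruses, was at 77.5 FPKM or more in every library and rose by 0.84 and 1.77.

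The Mx GTPases block incoming viral particles where a working protein is made, which RNA levels do not show. Mx1 had 0.131, 0.295 and 0.0340 FPKM in NRASG12D, 0.875, 0.819 and 1.57 FPKM in NUP98-NSD1 and 2.07, 14.0 and 3.11 FPKM in NUP98-NSD1+NRASG12D libraries, and rose by log2 fold changes of 0.84 (limma adjusted p = 0.00850) and 2.32 (adjusted p = 0.0173) against NRASG12D. The first call was lost under quantile normalization. Mx2, annotated as a polymorphic pseudogene, had 0.0870, 0.0119 and 0.1099 FPKM, 0.112, 0.354 and 0.606 FPKM, and 0.588, 3.79 and 0.605 FPKM. It passed 1 FPKM in a single library and was not tested.

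The GBP and IRG families hold GTPases that are strongly induced by interferon gamma. All 6 on the list rose in NUP98-NSD1+NRASG12D and 5 in NUP98-NSD1 compared to NRASG12D cells, against 24.2% and 42.2% of all tested genes. Under median-ratio scaling and quantile normalization Gbp3 alone stayed called in NUP98-NSD1 compared to NRASG12D cells. In NUP98-NSD1+NRASG12D compared to NRASG12D cells 4 and 5 of the 6 were called under these scalings, without Gbp7 in both and without Irgm1 under median-ratio scaling. Gbp3 (chromosome 3, 142560026 to 142573209) had 0.408, 0.851 and 0.462 FPKM in NRASG12D, 4.397, 3.43 and 4.43 FPKM in NUP98-NSD1 and 10.3, 25.1 and 10.4 FPKM in NUP98-NSD1+NRASG12D libraries. It rose in each comparison, by 1.70 (limma adjusted p = 0.000590), 3.26 (adjusted p = 0.000654) and 1.56 (adjusted p = 0.0394). Ifi47, the most abundant of the 6, had 17.5, 22.9 and 14.4 FPKM, 27.3, 39.5 and 29.3 FPKM, and 43.6, 73.5 and 32.5 FPKM, and rose by 0.78 (adjusted p = 0.0143) and 1.34 (adjusted p = 0.0161). Its NUP98-NSD1 and NUP98-NSD1+NRASG12D libraries overlapped. Igtp, Irgm1 and Gbp7 rose by 0.70, 0.87 and 0.44 in the first comparison and by 1.4996, 1.71 and 1.22 in the second, and Gbp2 rose in the second by 1.79. Over the 6 genes, the log2 fold changes against NRASG12D cells ran from 0.44 to 1.70 with the fusion alone and from 1.22 to 3.26 with both.

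Of the 5 genes left, Ifi27l2a, which encodes a small membrane protein, had 1.51, 1.90 and 0.679 FPKM in NRASG12D, 11.7, 16.2 and 47.6 FPKM in NUP98-NSD1 and 146, 262 and 17.7 FPKM in NUP98-NSD1+NRASG12D libraries. It rose by log2 fold changes of 3.26 (standard error 0.48, limma adjusted p = 0.00238) and 5.28 (0.90, adjusted p = 0.00443) against NRASG12D. Replicate 3 of NUP98-NSD1+NRASG12D lay within the NUP98-NSD1 range. Trim30a, which restrains inflammatory signalling, had 2.74, 3.31 and 2.496 FPKM, 6.33, 5.80 and 7.54 FPKM, and 14.6, 39.6 and 21.4 FPKM, and rose in each comparison, by 0.97, 2.66 and 1.69 (adjusted p = 0.00199, 0.00134 and 0.0312). Ifi35 was abundant in all libraries, with 45.3, 43.04 and 43.6 FPKM, 47.7, 47.2 and 59.3 FPKM, and 58.0, 106 and 70.7 FPKM, and rose in NUP98-NSD1+NRASG12D compared to NRASG12D cells only (0.77, adjusted p = 0.0356). This call was lost under both other scalings. Xaf1, a gene linked to apoptosis, rose by 1.96 and 3.78 against NRASG12D. Ifi44 had 0.0144, 0 and 0.0109 FPKM, 0.231, 0.577 and 0.460 FPKM, and 0.555, 5.33 and 0.592 FPKM, and was not tested.

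The libraries of a group were not alike in these genes. 40 of the 43 genes had their highest level of all 9 libraries in NUP98-NSD1+NRASG12D replicate 2, which held the highest level of 10.4% of all tested genes. The exceptions were Ifitm1 and Ifitm2, highest in NRASG12D replicate 1, and Ifitm6, highest in NUP98-NSD1+NRASG12D replicate 1. In 29 of the 43 genes the level in replicate 2 was more than 2-fold above both other libraries of its group, as it was in 6.04% of all tested genes. This library was also set apart by cell type markers. Its 12 granulocyte markers had the lowest sum of the group, 9408 against 15325 and 19889 FPKM, and its 11 mast cell markers the highest, 4335 against 969 and 739 FPKM. The macrophage receptor gene Mrc1 had 132 FPKM there against 9.89 and 9.61 FPKM in replicates 1 and 3, and the macrophage marker Adgre1 296 against 46.2 and 114 FPKM. Pf4, a megakaryocyte marker also expressed in macrophages, had 1157 FPKM against 62.8 and 111 FPKM. The sum of the 11 monocyte and macrophage markers was 2668 FPKM in replicate 2, between 2189 and 4892 FPKM in the others. Mrc1, Adgre1 and Pf4 were named after their values were seen and do not stand for their whole lists. Pf4 is 1 of 8 erythroid and megakaryocyte markers, of which 7 were tested. Between the groups with the fusion, 1 of these 7 had a positive log2 fold change and Itga2b was called lower. The 9 plasmacytoid dendritic cell markers summed to 48.1 to 56.3 FPKM over the 9 libraries, with the defining Siglech and Ccr9 under 1 FPKM in each. Of the 4 tested among them, Tcf4, Cox6a2 and Runx2 rose and Il3ra fell in both comparisons with NRASG12D, with Cox6a2 losing its call in the first under quantile normalization. The 10 lymphoid markers summed to 0.610 to 1.16 FPKM in NRASG12D cells, 31.1 to 154 FPKM with the fusion alone and 8.37 to 306 FPKM with both. In both groups with the fusion this was mostly Nkg7, a granule gene of cytotoxic cells, which rose by log2 fold changes of 6.34 and 5.85 against NRASG12D, while all others but Ncr1 were under 1 FPKM in each library. The part of cell content in the level of the 43 genes was not tested.

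In the NUP98-NSD1 group, 35 of the 43 genes were highest in replicate 3, which held the highest level of the group for 26% of all tested genes. The mean log2 level of the 43 genes was 4.30 there against 3.54 and 3.76. That library had the lowest sums of granulocyte markers, 1868 against 6314 and 5909 FPKM, and of monocyte and macrophage markers, 541 against 1073 and 786 FPKM, and the highest sum of mast cell markers, 31856 against 27085 and 26832 FPKM. In the NRASG12D group, 29 of the 43 genes were highest in replicate 2, the deepest library, as were 46.9% of all tested genes. Among the groups with the fusion, the library with the highest level of the 43 genes was thus in each case the one with the lowest granulocyte sum of its group, a pattern over 2 libraries that was noticed in the data and has no test.

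The genes of the pathway outside the list were counted by lists of their own. None of the 21 interferon genes reached 1 FPKM in any library, and their summed level was 0.337 to 0.974 FPKM. The highest value was 0.457 FPKM, that of Ifnb1, the gene of interferon beta, in NUP98-NSD1+NRASG12D replicate 2. Ifnb1 was listed at 0 in the 3 NRASG12D libraries, and had 0.0541, 0.181 and 0.0663 FPKM in NUP98-NSD1 and 0.169, 0.457 and 0.0692 FPKM in NUP98-NSD1+NRASG12D libraries. It was above the level given by 3 fragments, which was 0.113 to 0.178 FPKM, in 3 libraries. Ifnz was above that level in 2 NUP98-NSD1 libraries, and the other 19 interferon genes were not above it in any, which at this depth does not show that they are absent.

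Receptor genes were higher in both groups with the fusion, while the genes of the receptor kinases were not. Of 8 tested receptor and kinase genes, 5 rose in each comparison with NRASG12D (against 42.2% and 24.2% of all tested genes) and none fell, and these were Ifnar1, Ifnar2, Ifngr1, Ifngr2 and Il10rb, which kept their calls under both other scalings. Ifngr2 had 4.38, 4.57 and 2.65 FPKM in NRASG12D, 45.6, 37.4 and 19.3 FPKM in NUP98-NSD1 and 67.8, 93.5 and 86.8 FPKM in NUP98-NSD1+NRASG12D libraries, with log2 fold changes of 2.79 (limma adjusted p = 0.00111) and 4.12 (adjusted p = 6.19e-05). Ifnar1 had 15.7, 16.4 and 14.9 FPKM, 27.8, 25.6 and 21.2 FPKM, and 32.2, 45.6 and 36.6 FPKM, and rose by 0.63 and 1.22. Ifnar2 rose by 0.80 and 1.37, Ifngr1 by 1.94 and 3.10, and Il10rb by 1.42 and 2.18. The log2 fold changes of Jak1 were -0.05 and -0.03 (adjusted p = 0.634 and 0.901), and those of Tyk2 -0.08 and -0.17 (adjusted p = 0.420 and 0.366). In NUP98-NSD1 compared to NRASG12D cells both kinases were called lower under median-ratio scaling and quantile normalization, as was Tyk2 in NUP98-NSD1+NRASG12D compared to NRASG12D cells under the latter. None of the 8 genes passed between the groups with the fusion, where the log2 fold changes ran from -0.22 to 1.33, although 2 were called higher under each of the other scalings.

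Of 6 other transcription factor genes of the pathway, 3 rose in NUP98-NSD1 and 5 in NUP98-NSD1+NRASG12D compared to NRASG12D cells (against 42.2% and 24.2% of all tested genes), and Irf5 alone rose between the latter 2 groups. Irf7, which drives interferon genes and is itself an interferon target, had 1.27, 1.78 and 1.42 FPKM in NRASG12D, 13.9, 27.5 and 40.6 FPKM in NUP98-NSD1 and 46.3, 295 and 76.0 FPKM in NUP98-NSD1+NRASG12D libraries. It rose by 3.39 (standard error 0.34, limma adjusted p = 0.000766) and 5.37 (0.62, adjusted p = 0.000876), with the same library on top as in the 40 genes above. Irf5 had 5.74, 6.70 and 5.91 FPKM, 27.1, 22.7 and 19.4 FPKM, and 50.6, 64.9 and 44.6 FPKM, and rose by 1.75, 2.92 and 1.17. Irf2 rose by 0.85 and 1.15 against NRASG12D. Irf9, the DNA-binding part of the complex above, had 13.7, 13.9 and 15.1 FPKM, 16.7, 15.9 and 27.4 FPKM, and 18.2, 42.2 and 26.8 FPKM. It rose in NUP98-NSD1+NRASG12D compared to NRASG12D cells only (0.90, adjusted p = 0.0451), as did Irf1 (0.53, adjusted p = 0.0477), and both calls were lost under both other scalings. Irf3 had log2 fold changes of 0.03 and -0.32 (adjusted p = 0.780 and 0.136), and under both other scalings it was called lower in both comparisons.

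**Figure D5:**
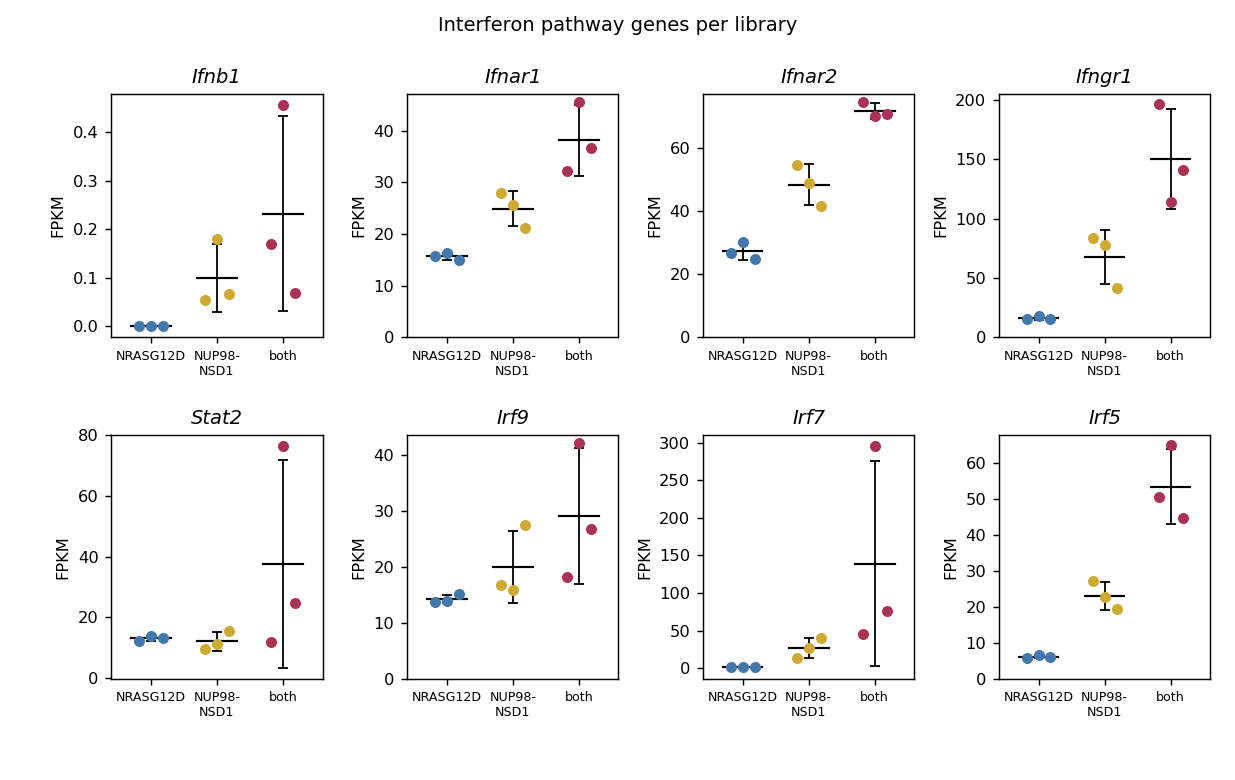
FPKM (vertical axes, a separate scale per gene) of interferon beta, 3 receptor genes and 4 transcription factor genes of the pathway in the 3 libraries of each group, with mean (bar) and SD (whiskers), where both stands for NUP98-NSD1+NRASG12D. Ifnb1 stays at 0.457 FPKM or below, the receptor genes climb with the groups, and Stat2, Irf9, Irf7 and Irf5 are highest in 1 NUP98-NSD1+NRASG12D library, replicate 2, at 76.4, 42.2, 295 and 64.9 FPKM.

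Among 6 genes of negative feedback, 2 rose and 1 fell in NUP98-NSD1 compared to NRASG12D cells, and 2 rose and 2 fell in NUP98-NSD1+NRASG12D cells, while 42.2% and 24.2% of all tested genes were called higher and 9.98% and 14.1% lower. Under both other scalings Pias1 was also called lower in the first comparison. Socs1, an inhibitor of the receptor kinases, had 116, 101 and 112 FPKM in NRASG12D, 72.9, 69.4 and 71.6 FPKM in NUP98-NSD1 and 9.80, 30.8 and 13.2 FPKM in NUP98-NSD1+NRASG12D libraries, and fell in the 3 comparisons, with log2 fold changes of -0.61, -2.703 and -2.09 (limma adjusted p = 0.00167, 0.00189 and 0.0224). The 3 groups did not overlap, in the opposite order to the list. The related Socs3 rose by 1.87 and 2.32 against NRASG12D, and the phosphatase gene Ptpn6 by 0.80 and 1.36. Ptpn2, a phosphatase gene, fell by 0.92 against NRASG12D and by 1.26 against NUP98-NSD1 cells in NUP98-NSD1+NRASG12D cells. Under median-ratio scaling Socs1 was not called between the groups with the fusion.

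Of 10 genes that act upstream in nucleic acid sensing, 7 rose in NUP98-NSD1 and 6 in NUP98-NSD1+NRASG12D compared to NRASG12D cells (against 42.2% and 24.2% of all tested genes), and none fell. In the first comparison 5 and 3 were called higher under median-ratio scaling and quantile normalization, with Tbk1 called lower under both, and in the second 6 and 5 were called higher. Unc93b1, which carries Toll-like receptors to endosomes, had 3.88, 12.1 and 4.22 FPKM in NRASG12D, 77.8, 62.4 and 49.9 FPKM in NUP98-NSD1 and 157, 215 and 184 FPKM in NUP98-NSD1+NRASG12D libraries, and rose in each comparison, by log2 fold changes of 3.19, 4.74 and 1.55. Tlr7, a receptor for single-stranded RNA, rose by 1.57 and 3.18, and the STING gene Tmem173 by 1.17 and 1.31 against NRASG12D. Ikbke, a kinase gene of the same pathway, rose by 0.72 and 1.84, and the calls of Ikbke in the first and of Tmem173 in the second comparison were lost under quantile normalization. Of 67 tested genes in a further list of interferon-stimulated genes, 43 rose and 3 fell in NUP98-NSD1 and 42 rose and 1 fell in NUP98-NSD1+NRASG12D compared to NRASG12D cells, and 6 rose between the latter 2 groups, against 42.2%, 24.2% and 2.3% of all tested genes called higher. The median log2 fold changes were 0.64, 1.26 and 0.81 for the 67 genes and 0.27, 0.23 and -0.06 for all tested genes. Plac8, Ms4a4c and Slfn1 had the largest rises against NRASG12D, by 5.11, 4.28 and 3.56 in NUP98-NSD1 and 5.93, 5.37 and 6.24 in NUP98-NSD1+NRASG12D cells, and among the 6 called between the groups with the fusion Slfn1, Ifi209 and Isg20 rose most, by 2.68, 2.39 and 2.08. With median-ratio scaling 30 genes of this list were higher and 9 lower in NUP98-NSD1 compared to NRASG12D cells, and none was called between the groups with the fusion. With quantile normalization 27 were higher and 9 lower in the former and 2 were higher in the latter.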

How the data were processed

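RNA sequencing of 9 libraries in 3 groups was analysed from 1 table per library, and groups were taken from the labels. The deposited FPKM values had been made by the authors from paired-end reads of 50 bases, aligned to GRCm38.p6 and quantified with Cufflinks (STAR 2.7.2a and Cufflinks 2.2.1 in the submitters' processing notes). Replicates were not pooled, and strand and the treatment of reads that map to several genes were not given in the sources used here. FPKM is relative to the mapped total of a library, so a few abundant genes can shift all others, which is why other scalings were tried.

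Identifiers listed on several lines were summed per library. Depth was estimated from the steps between the low values of a library, of which 86.0% to 88.7% lay on whole steps. Genes that reached 1 FPKM in 3 or more of the 9 libraries were tested on log2(FPKM + 1) with limma 3.58.1 (trend option, R 4.3.3), pairwise on 6 libraries, with Benjamini-Hochberg adjustment over all 13493 genes and a threshold of 0.05. Fold changes are on the log2(FPKM + 1) scale and understate changes of low genes. Tables were handled in Python 3.11.15 with pandas 2.3.3. Alternatives were a pseudocount of 0.1, no filter, median-ratio scaling, quantile normalization, array weights, 1 fit over 9 libraries, a replicate block, and leaving out each library.

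The genes and lists were chosen with earlier results of these data known. Values per library were printed for the 8 largest called changes of each comparison, the most abundant gene of each role, the pairs Parp9 and Dtx3l and Rsad2 and Cmpk2, and the Ifitm genes. In the pathway lists they were printed for Ifnb1, Ifngr2, Ifnar1, Irf7, Irf5, Irf9, Socs1 and Unc93b1. The other ligands, receptors, kinases and transcription factors, and the rest of the 3 largest called changes in the other lists, were given by log2 fold changes or by counts. Genes with a printed promoter, uncalled genes, Ifih1, Dhx58, Ptpn6, Pias1, Tbk1, Tmem173, Ikbke and the single cell type markers were named after their values were seen. 1 gene of the pathway lists is not reported here. Gene positions are those of the GRCm38 annotation, which equal the deposited loci for 42 of the 43 genes, with Isg15 as the exception.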

Additional observations from a re-analysis of the deposited data

How the results depend on the processing

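The comparison between the groups with the fusion depended most on the processing. Its main count of 8 called genes of the list, all higher, became 19 with all 9 libraries in 1 fit and 29 with array weights. Of the 19, 18 were higher and 1, Ifitm2, was lower. Of the 29, 27 were higher and 2, Ifitm1 and Ifitm2, were lower. The count was 2 (Ifitm3 and Ifitm6) with median-ratio scaling and 0 without the filter (19 of 43 at an unadjusted p under 0.05 by limma). Leaving out 1 library gave 0 to 21. Over all genes, 1162 calls became 2251, 3500 and 169 with 1 fit, array weights and no filter, and 283 to 2509 with 1 library left out. In NUP98-NSD1 compared to NRASG12D cells the single fit gave 16 of the 41 genes in place of 29, and 3065 of all genes in place of 7036. In NUP98-NSD1+NRASG12D compared to NRASG12D cells the fit without the filter called 21 genes of the list in place of 34. Leaving out 1 library gave 24 to 40 genes of the list, and 2941 to 6327 calls over all genes in place of 5173. The mean log2 level of the list in NRASG12D cells, 2.52, was 1.54 with a pseudocount of 0.1, 2.63 with median-ratio scaling and 2.75 with quantile normalization. The cause of these moves was not tested.

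All changes of sign were in NUP98-NSD1 compared to NRASG12D cells, in genes that were not called there. With array weights the log2 fold changes were -0.040 for Ddx58, -0.060 for Eif2ak2 and -0.044 for Ifitm2. With median-ratio scaling they were -0.17 for Ddx58, -0.081 for Parp9, -0.25 for Eif2ak2, -0.33 for Ifitm2 and -0.12 for Ifi35. With quantile normalization they were -0.20 for Ddx58, -0.093 for Parp9, -0.25 for Eif2ak2, 0.54 for Ifitm1 (called higher), -0.11 for Ifitm2 and -0.092 for Ifi35. With 1 library left out they ran from -0.16 to 0.30 for Ddx58, from -0.32 to 0.010 for Stat2, from -0.11 to 0.19 for Eif2ak2, from -0.18 to 0.14 for Ifitm1 and from -0.049 to 0.080 for Ifitm2. Stat2 was called lower without NUP98-NSD1 replicate 3.

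Deviations from the group means of libraries that share a replicate number had correlations of -0.177 to 0.1602. With 3 libraries per group these values cannot show whether the numbers pair the libraries. With the replicate block 29, 35 and 9 genes of the list were called in the 3 comparisons, and 6864, 4531 and 801 of all genes. At a depth of 22450000 fragments in the shallowest library, the lowest FPKM values rest on a few fragments.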
